A study of Mus musculus with 12 samples.

Results

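The genes described here were 45 named components of the cardiac sarcomere and Z-disc, chosen by symbol for what their products are. They and the reference and marker lists used below were chosen with earlier results of these data known. Each of the 45 symbols was found on a single row of the 53801 gene rows, and all 45 passed the filter on low counts that left 15306 genes for testing. They were sorted by role into 8 thick filament and M-band genes, 10 thin filament genes, 13 Z-disc genes, 4 muscle ubiquitin ligases, 5 folding, assembly and maturation genes and 5 genes of the intermediate filament, costamere and other anchoring sites. The question asked of them was which genes departed from the common fall of cardiomyocyte transcripts after acute myocardial infarction (AMI).

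RNA sequencing was performed on whole hearts of wild-type C57BL/6N mice, described in the study's methods as males of 10 to 14 weeks. AMI was made by permanent ligation of the left anterior descending coronary artery, and hearts were taken on day 1 or day 7 after ligation (day 1 AMI and day 7 AMI), while sham hearts came from operated animals without infarction. Each group had 4 libraries, each treated here as 1 heart. A whole heart mixes infarct, border and remote muscle, and neither the time of sham collection nor any pooling of animals was given in the sources used here. In such bulk samples, fewer cardiomyocytes and less RNA per cardiomyocyte cannot be told apart.

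The sarcomere is the contractile unit of striated muscle. Thick filaments of myosin are held at the M-band by myomesins and spanned by titin, thin filaments of actin carry tropomyosin and the troponin complex that answers to calcium, and the thin filaments are anchored in the Z-disc by alpha-actinin. Desmin, vinculin and dystrophin tie the Z-disc to the cell surface and to neighbouring myofibrils. Several Z-disc proteins, among them muscle LIM protein, filamin C and the PDZ-LIM family, are known for their links to stretch and load.

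Promoter windows were available for 36 of the 45 genes (RefSeq, GRCm38.p6, 250 bases before to 50 bases after each start, 53 windows in all). They were searched on both strands for 4 elements known from muscle promoters: the MCAT element, spelled CATTCC, the element bound by GATA factors, searched here as the letters AGATAG, the CArG box and the MEF2 element. A CArG box stood in the windows of 7 of 36 genes (19.4%, against 1.81% of all 27025 genes in the same table), and a MEF2 element in those of 8 of 36 (22.2% against 3.70%). MCAT was found for 13 of 36 (36.1% against 16.6%) and GATA for 7 of 36 (19.4% against 10.3%). In the member windows no match of one element overlapped a match of another. These are matches of letters, not measured binding.

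5 windows are shown, each from 5′ to 3′ on the gene's strand with the matched elements in capitals. The first 4 belong to genes that were higher at day 1 AMI and are among the largest or most lasting departures described below. The last, of a myosin light chain gene that fell at both times, carries 3 kinds of element in 1 window. The elements were not confined to genes that rose. MEF2 elements also stood in windows of Ttn, Mybpc3 and Myoz2, and MCAT in windows of Tnnt2 and Tmod1, which all fell at day 1 AMI. Des, which rose, had no match in its window. The MEF2 elements of Xirp2 (chr2:67445752-67446051, plus strand) and Synpo2l (chr14:20668305-20668604, minus strand) began 74 and 109 bases before the start. The MCAT of Flnc (chr6:29432903-29433202, plus strand) lay across the start of this window. RefSeq gives Flnc a second window, whose start is the gene start given below for Flnc, and there the same MCAT began 104 bases before it. Synpo2l too had a second window, with a MEF2 element 144 bases before its start. Pdlim3 (chr8:45885237-45885536, plus strand) held 2 MCAT, 201 and 11 bases before its start. Myl3 (chr9:110763428-110763727, plus strand) held 2 MCAT, a CArG box and a GATA.
Xirp2: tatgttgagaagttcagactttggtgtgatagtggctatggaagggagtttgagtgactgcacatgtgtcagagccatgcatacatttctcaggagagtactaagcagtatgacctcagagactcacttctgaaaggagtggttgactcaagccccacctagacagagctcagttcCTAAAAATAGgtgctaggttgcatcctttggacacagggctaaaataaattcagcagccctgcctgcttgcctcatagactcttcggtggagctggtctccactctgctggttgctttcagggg
Synpo2l: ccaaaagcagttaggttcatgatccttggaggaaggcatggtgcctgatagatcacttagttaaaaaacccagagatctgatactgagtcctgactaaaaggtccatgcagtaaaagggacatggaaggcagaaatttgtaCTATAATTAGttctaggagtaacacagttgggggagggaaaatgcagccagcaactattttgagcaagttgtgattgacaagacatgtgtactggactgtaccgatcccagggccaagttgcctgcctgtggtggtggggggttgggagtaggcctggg
Flnc: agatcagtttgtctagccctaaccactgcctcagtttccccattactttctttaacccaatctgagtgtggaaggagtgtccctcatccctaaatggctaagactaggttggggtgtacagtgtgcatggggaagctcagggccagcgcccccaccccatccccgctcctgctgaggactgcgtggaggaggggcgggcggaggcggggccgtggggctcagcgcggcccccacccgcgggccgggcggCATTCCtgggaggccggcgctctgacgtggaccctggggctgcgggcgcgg
Pdlim3: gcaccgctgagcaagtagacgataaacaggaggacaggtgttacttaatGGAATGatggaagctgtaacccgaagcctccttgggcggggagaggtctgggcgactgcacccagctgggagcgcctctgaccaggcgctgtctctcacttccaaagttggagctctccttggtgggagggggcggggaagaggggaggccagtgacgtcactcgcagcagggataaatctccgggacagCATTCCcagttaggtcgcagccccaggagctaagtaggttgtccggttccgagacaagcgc
Myl3: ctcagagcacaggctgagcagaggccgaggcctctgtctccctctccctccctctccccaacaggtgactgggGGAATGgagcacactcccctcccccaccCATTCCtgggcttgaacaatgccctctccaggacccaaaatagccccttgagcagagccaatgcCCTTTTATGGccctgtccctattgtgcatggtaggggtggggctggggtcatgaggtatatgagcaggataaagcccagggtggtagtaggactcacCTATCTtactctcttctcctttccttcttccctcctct

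Per transcript length, the 45 genes spanned a wide range. In TPM, which divides by transcript length and by each library's total, the sham means ran from 15739 for Myl2, the ventricular regulatory light chain, through 11939 for Tnni3 (cardiac troponin I), 9825 for Tpm1 (alpha-tropomyosin) and 9394 for Tnnt2 (cardiac troponin T), down to 2.18 for Myom3, 0.66 for Tnni1 and 0.14 for Myoz1. Together the 45 genes made up 7.71% ± 0.80 of all TPM in sham (SD, n = 4), 7.51% ± 0.21 at day 1 AMI and 5.96% ± 0.37 at day 7 AMI. The sham hearts ranged from 6.93% to 8.42% and the day 7 AMI hearts from 5.53% to 6.43%, so those groups did not overlap, while the day 1 AMI hearts (7.21% to 7.68%) lay inside the sham range. Tpm1 held rank 3 in sham and rank 1 at day 7 AMI (9524 TPM, against 8871 for Myl2). Flnc moved from rank 33 in sham to 21 at day 1 AMI, Synpo2l from 34 to 23 and Xirp2 from 35 to 25.

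**Figure D1:**
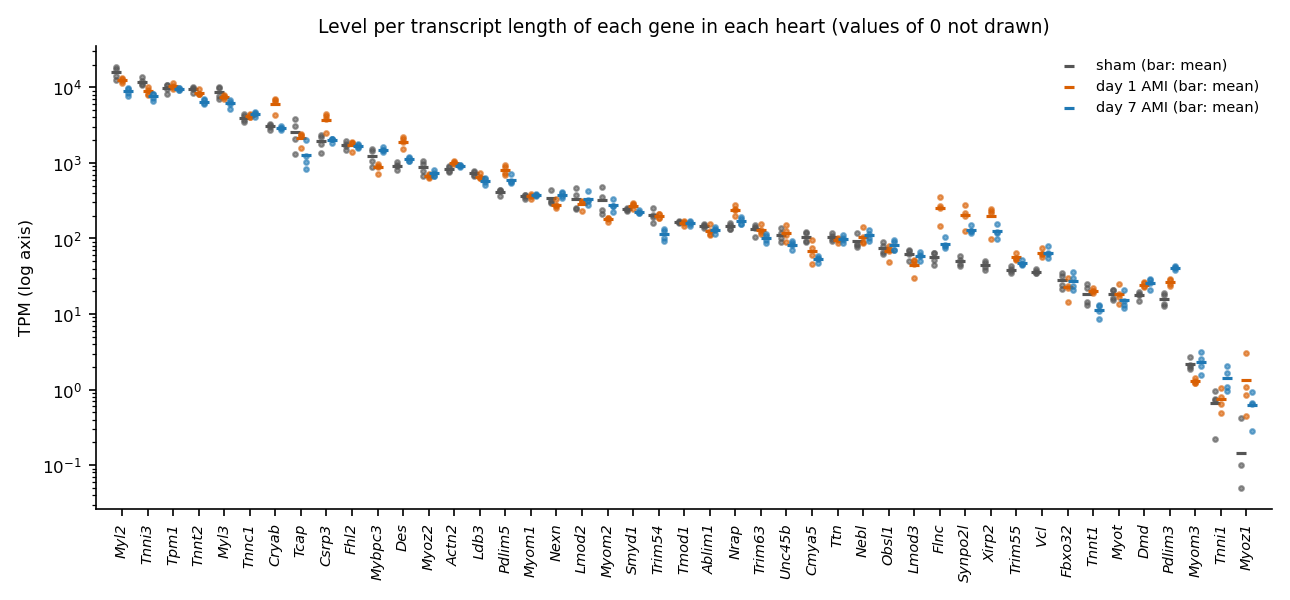
Level per transcript length of the 45 genes, ordered by the sham mean, in TPM on a log axis; small points are single hearts and bars are means of 4 hearts, with a colour for each group. Most genes keep their place over the range from 15739 TPM (Myl2) to 0.14 TPM (Myoz1) in sham, and Flnc, Synpo2l and Xirp2 stand out by their day 1 AMI levels.

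Depth ranged from 23204551 to 32166517 counts per library. The scaling between libraries bears on every direction given below. The TMM factors, which set the typical gene equal between libraries, were 0.781 to 0.917 in sham, 1.01 to 1.06 at day 1 AMI and 1.10 to 1.17 at day 7 AMI, and with them the median log2 fold change (FC) of all genes was -0.01 at day 1 AMI, 0.03 at day 7 AMI and 0.02 from day 1 to day 7. With library sizes alone that median moved to 0.26 at day 1 AMI and 0.43 at day 7 AMI, and on TPM (genes of at least 1 TPM in at least 4 libraries) to 0.27 and 0.47. A gene that fell under TMM therefore fell relative to the typical gene, and its share of all transcripts may have changed less. Levels below are TMM-normalized CPM (counts scaled to a common library total) unless another unit is named.

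In the comparison of day 1 AMI with sham, 22 of the 45 genes fell, 11 rose and 12 did not pass the test (edgeR's quasi-likelihood test, adjusted p under 0.05 over all genes tested), with a median log2 FC of -0.32. Of all genes tested, 22.0% were higher and 19.9% lower in this comparison. With a FC of 2 or more as well (DEGs, by the study's thresholds), 4 genes were higher and 1 lower, against 7.79% and 2.98% of all genes. By role, all 8 thick filament and M-band genes fell, as did 5 of 10 thin filament genes and 3 of 4 ligases, with none higher in these roles. Of 13 Z-disc genes 6 rose and 4 fell, of 5 anchoring genes 2 rose and 2 fell, and of 5 folding and assembly genes 3 rose and 0 fell. No difference between roles was tested. The roles hold only genes of the 45. A further list described at the end includes other thick and thin filament genes, such as the myosin heavy chains. Of its 36 genes tested, 16 rose and 8 fell at day 1 AMI. With library sizes alone the split of the 45 genes was 14 higher and 10 lower, where 41.1% of all genes were higher and 6.93% lower. On TPM (log2 of TPM + 1, limma, 26574 genes) it was 14 higher and 4 lower, where 21.2% were higher and 2.28% lower. All 11 genes that rose were also called higher under each of these scalings.

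The thick filament genes fell by modest amounts. Myl2 measured 4844, 4712, 6408 and 6357 CPM in the sham hearts and 3814, 3221, 3766 and 3286 at day 1 AMI, with no overlap (log2 FC -0.66 ± 0.14 SE, adjusted p = 0.00191 by edgeR). Myom2, a myomesin of the M-band, fell most of the 45 genes and was the DEG lower at day 1 AMI. It measured 1089, 842, 1490 and 2147 CPM in sham and 597, 571, 626 and 633 at day 1 AMI (log2 FC -1.20 ± 0.23, adjusted p = 0.00096). Its sham hearts differed among themselves by more than its day 1 AMI hearts did. Mybpc3, the cardiac myosin-binding protein C, and Myom3 fell by 0.81 and 0.88 on the log2 scale. Myl3 (the ventricular essential light chain), Ttn (titin), Myom1 and Obsl1 fell by between 0.32 and 0.53.

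Among the thin filament genes, Tnni3 fell from 5790, 4811, 4848 and 5355 CPM in sham to 3051, 2829, 3277 and 3662 (log2 FC -0.70 ± 0.11, adjusted p = 0.000261). Tnnt2 and the leiomodins Lmod2 and Lmod3, which nucleate or lengthen actin filaments, also fell, as did the pointed-end cap Tmod1. Tnnc1 (troponin C), Tpm1 and Nebl (nebulette) did not pass the test, with log2 FCs of -0.25, -0.24 and -0.32. Neither did the slow skeletal isoforms Tnnt1 and Tnni1.

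The Z-disc genes divided. Ldb3 (the PDZ-LIM protein Cypher), Myoz2, Fhl2 and Nexn (nexilin) fell by 0.34, 0.70, 0.29 and 0.64 on the log2 scale, Actn2, Tcap and Myot (myotilin) did not pass the test (-0.05, -0.57 and -0.33), and the other 6 rose. On TPM Actn2 was called higher (0.28), and the differences of Fhl2 and Myom1 were just above 0 (0.017 and 0.0017). Among the anchoring genes Cmya5 and Ablim1, an actin-binding LIM protein, fell by 0.94 and 0.56, and Dmd (dystrophin) did not pass (0.21). Of the ligases Trim63, Trim54 and Fbxo32 fell by 0.35, 0.33 and 0.64, and Trim55 did not pass (0.13). Smyd1 and Unc45b, which fold or modify myosin, did not pass either (-0.16 and -0.24).

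After Myoz1, which rested on few counts, the largest rise in log2 FC at day 1 AMI was that of Flnc, the actin cross-linker filamin C of the Z-disc (chromosome 6, 29433256 to 29461883, plus strand, GRCm38). It measured 448, 486, 495 and 362 CPM in sham and 1660, 2288, 1776 and 889 at day 1 AMI (log2 FC 1.88 ± 0.22, adjusted p = 4.22e-05), with no overlap. Xirp2, an actin-binding Xin-repeat protein of the intercalated disc (chromosome 2, 67446002 to 67526614, plus strand), measured 602, 392, 492 and 462 CPM in sham and 1924, 2139, 2064 and 831 at day 1 AMI (log2 FC 1.84 ± 0.25, adjusted p = 0.000105). Synpo2l, a Z-disc relative of synaptopodin (chromosome 14, 20658946 to 20668354, minus strand), measured 163, 148, 195 and 180 CPM in sham and 573, 723, 533 and 318 at day 1 AMI (log2 FC 1.65 ± 0.19, adjusted p = 4.03e-05). In all 3 genes the fourth day 1 AMI heart was the lowest of its group and still above every sham heart.

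Des, the muscle intermediate filament desmin, measured 2160, 2187, 2172 and 2601 CPM in sham and 3838, 4333, 4186 and 2948 at day 1 AMI (log2 FC 0.75 ± 0.12, adjusted p = 0.00036). Cryab, the small heat shock protein alpha-B-crystallin that binds desmin and titin, measured 1540, 1528, 1594 and 1574 CPM in sham and 2643, 2869, 2874 and 1680 at day 1 AMI (log2 FC 0.69 ± 0.14, adjusted p = 0.00163). In Csrp3, which encodes muscle LIM protein, the groups overlapped in 1 heart: 837, 934, 1240 and 1272 CPM in sham against 1942, 2036, 1755 and 1091 (log2 FC 0.67 ± 0.18, adjusted p = 0.00863). The other genes that rose were Pdlim5 (log2 FC 0.62), the costamere gene Vcl (vinculin, 0.47), Pdlim3 (0.47), Nrap, a nebulin-related scaffold of assembling myofibrils (0.41), and Myoz1. In Nrap and Pdlim3 the fourth day 1 AMI heart also lay inside the sham range. It measured 713 CPM in Nrap (sham 577 to 732) and 19.8 in Pdlim3 (sham 13.3 to 20.7).

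Myoz1 encodes the calsarcin of fast skeletal muscle and was close to the limit of detection. The sham libraries held 2, 1, 2 and 0 counts, the day 1 AMI libraries 19, 40, 13 and 10, and the day 7 AMI libraries 19, 11, 5 and 10. The ratio of summed, library-adjusted counts was 11.4 at day 1 AMI (95% exact interval 4.71 to 36.2) and 6.66 at day 7 AMI (2.65 to 21.5), where the intervals cover counting error only. Myoz2, the cardiac calsarcin, was measured at 677, 509, 763 and 888 CPM in sham and fell at both times (log2 FC -0.70 and -0.85). Of the summed TPM of both genes, Myoz1 made up 0.016% ± 0.019 in sham, 0.20% ± 0.16 at day 1 AMI and 0.089% ± 0.042 at day 7 AMI (SD, n = 4). The day 1 AMI hearts (0.0612% to 0.438%) lay above the sham hearts (0% to 0.0428%), and the day 7 AMI hearts overlapped them. Myoz1 and Synpo2l are neighbours on the minus strand of chromosome 14, with 2405 bases between their annotated ends.

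All 11 genes that rose at day 1 AMI were lowest, within the day 1 AMI group, in the fourth heart. That heart also had the lowest summed CPM of the 6 atrial markers in its group (514, against 1024 to 1289 in the others, mostly Nppa) and the highest of the 11 metabolic reference genes (18327, against 15137 to 17331). Its fibroblast markers (2583, against 1958 to 2645) and leukocyte markers (344, against 329 to 477) lay inside the range of the others. Without this heart the counts were again 11 higher and 21 in place of 22 lower, with Unc45b now among the latter (log2 FC -0.33, adjusted p = 0.0473 by edgeR). The log2 FCs of Flnc, Xirp2 and Synpo2l were then 2.09, 2.07 and 1.83. Leaving out the second day 1 AMI heart in its place took Nrap below the threshold (adjusted p = 0.058 by edgeR). Among the fallers, the calls of Trim54 (adjusted p = 0.0482) and Lmod2 (0.042) were lost in 8 and 7 of the 12 fits that left out 1 library, and those of Fbxo32 (0.0326) and Trim63 (0.0294) in 5.

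**Figure D2:**
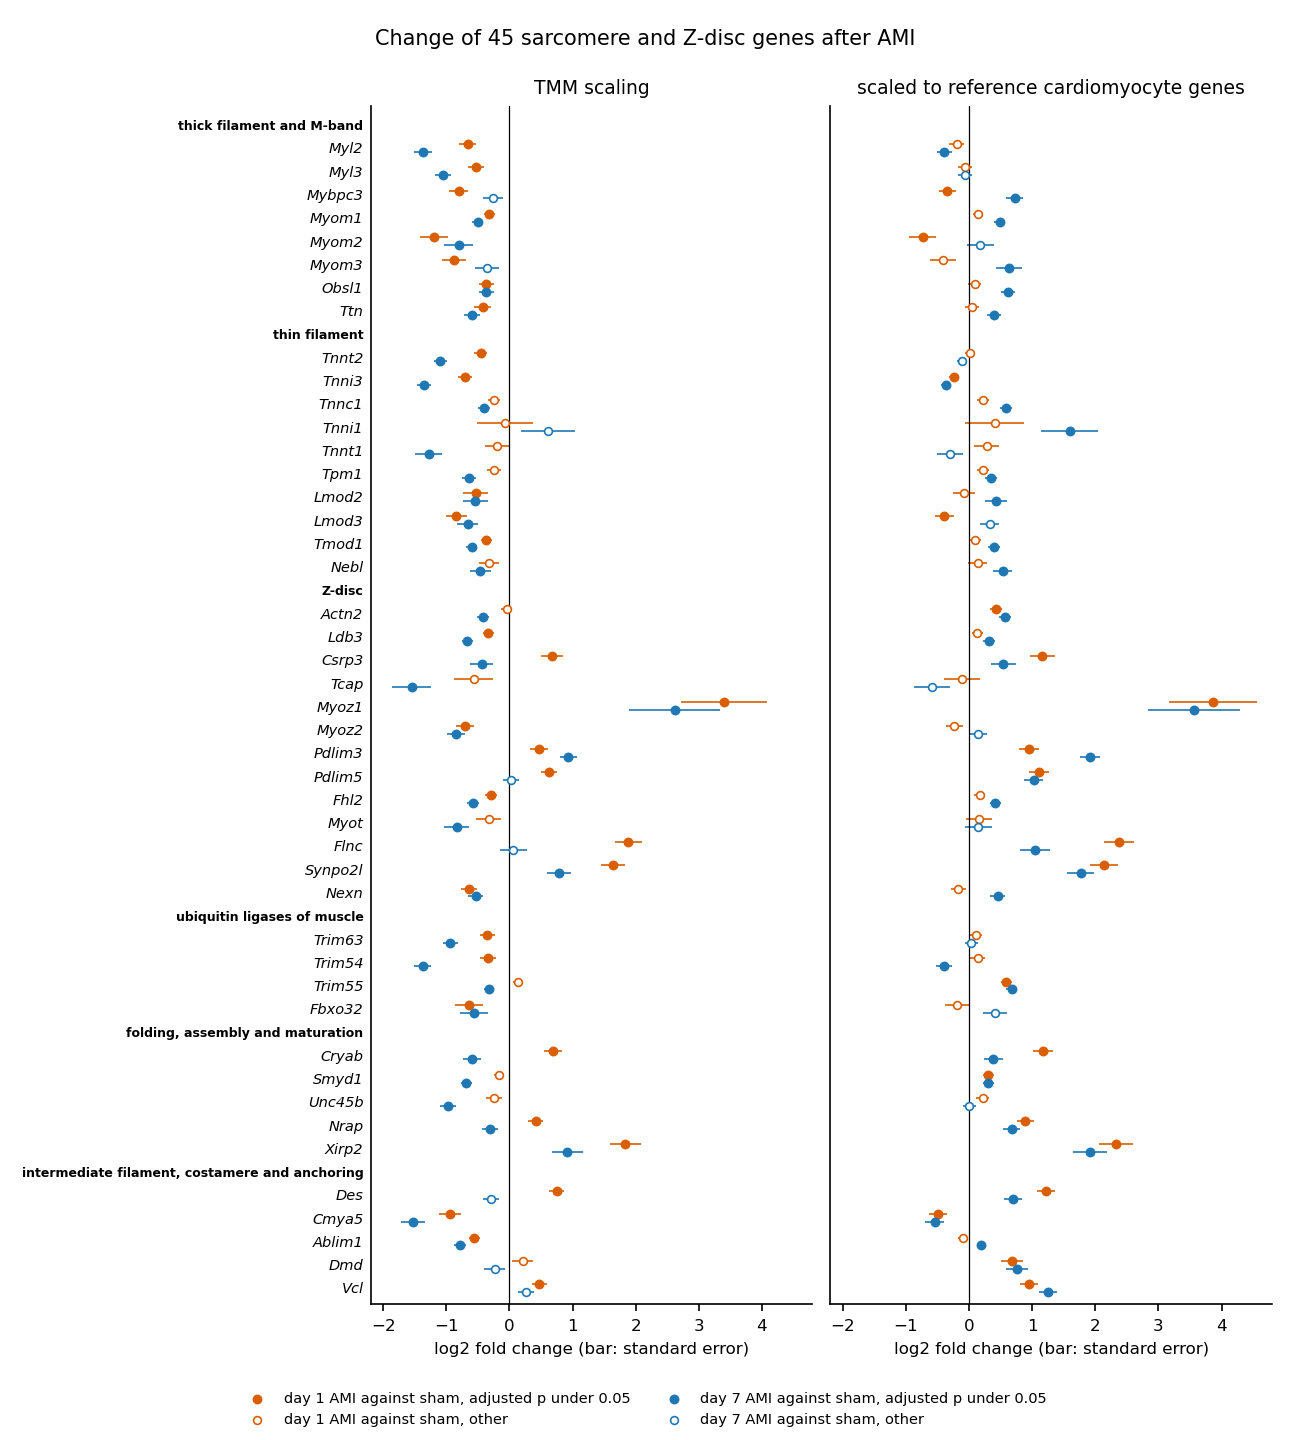
Log2 FC of each of the 45 genes by role at day 1 AMI and day 7 AMI against sham, with standard errors, under TMM scaling (left) and after scaling to 23 reference cardiomyocyte genes (right); filled points passed an adjusted p of 0.05. Under TMM most points lie left of 0 at day 7 AMI (33 of 45 lower, against 28.4% of all genes). After reference scaling most lie right of it (30 of 45 higher, against 83.6% of all genes), with Myoz1, Flnc, Xirp2, Synpo2l and Pdlim3 farthest to the right.

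By day 7 AMI the fall was wider. Against sham, 33 of the 45 genes fell, 4 rose and 8 did not pass the test (median log2 FC -0.57), where 30.9% of all genes were higher and 28.4% lower. As DEGs, 8 genes were lower and 1 (Myoz1) higher, against 5.88% lower and 15.3% higher of all genes. The call of Myoz1 did not pass on log2(TPM + 1) (log2 difference 0.51, adjusted p = 0.164 by limma). With library sizes alone 15 genes were lower and 6 higher, where 10.8% of all genes were lower and 53.8% higher, and on TPM 9 were lower and 8 higher, where 3.51% were lower and 37.2% higher. Most of these falls were thus falls relative to the typical gene. On TPM the differences of Myom1, Obsl1, Tnnc1, Lmod2, Nebl, Actn2, Csrp3, Nexn, Trim55 and Nrap, all called lower under TMM, were above 0. Of these only Trim55 was called higher there (0.29, adjusted p = 0.0126 by limma), so its direction depended on the scaling. Without the first sham heart 3 genes were DEGs higher, and without the second sham or the first day 7 AMI heart 2 were.

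The 8 DEGs lower were Tcap, Cmya5, Trim54, Myl2, Tnni3, Tnnt1, Tnnt2 and Myl3. Tcap, the titin cap telethonin, measured 893, 1213, 1868 and 2451 CPM in sham and 354, 532, 883 and 424 at day 7 AMI (log2 FC -1.55 ± 0.31, adjusted p = 0.000634). The groups did not overlap, though the highest day 7 AMI heart came close to the lowest sham heart. Cmya5, the desmin-binding myospryn, measured 1406, 1190, 965 and 981 CPM in sham and 398, 349, 446 and 378 at day 7 AMI (log2 FC -1.53 ± 0.18, adjusted p = 7.93e-06). Trim54, which encodes the microtubule-binding ubiquitin ligase MuRF3, measured 187, 255, 199 and 226 CPM in sham and 96.6, 75.4, 96.4 and 65.0 (log2 FC -1.38 ± 0.13, adjusted p = 9.54e-07).

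Myl2 reached 2335, 1744, 2534 and 2007 CPM at day 7 AMI (log2 FC -1.37 ± 0.14, adjusted p = 2.00e-06), and Tnni3 reached 2043, 1803, 2299 and 2019 (log2 FC -1.35 ± 0.11, adjusted p = 3.03e-07). Tnnt1, Tnnt2 and Myl3 fell by 1.28, 1.09 and 1.05 on the log2 scale. Tnnt1 and Tnni3 lie 1922 bases apart on the minus strand of chromosome 7, and their levels differed widely, at 18.7 and 11939 TPM in sham. In contrast, Trim63 (MuRF1), Trim55 (MuRF2) and Fbxo32 (atrogin-1), the other ligases, fell by 0.94, 0.32 and 0.57. Among the Z-disc and assembly genes that did not pass the test at day 1 AMI, Actn2, Myot, Smyd1 and Unc45b fell by 0.42, 0.84, 0.68 and 0.98 by day 7 AMI, the last from 290 to 373 CPM in sham to 147 to 182. Titin (Ttn) measured 8399, 5808, 6873 and 6338 CPM in sham and 4317, 4745, 5308 and 3797 at day 7 AMI (log2 FC -0.59 ± 0.13, adjusted p = 0.00134). Tpm1, Tnnc1, Nebl, Tmod1, Lmod2, Lmod3, Myom1, Myom2, Obsl1, Ldb3, Fhl2, Nexn and Ablim1 fell by between 0.36 and 0.81. The 8 genes that did not pass were Mybpc3, Myom3, Tnni1, Pdlim5, Flnc, Des (log2 FC -0.29, adjusted p = 0.0509 by edgeR), Vcl and Dmd, of which Dmd was called higher on TPM (0.51). The 9 genes called lower in all of the 21 alternative fits were Myl2, Tnnt2, Tnni3, Tnnt1, Ldb3, Tcap, Trim63, Trim54 and Cmya5.

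The 4 genes still above sham at day 7 AMI were Myoz1, Pdlim3, Xirp2 and Synpo2l. Pdlim3, which encodes the actinin-associated LIM protein ALP (chromosome 8, 45885461 to 45919548, plus strand), measured 20.7, 19.6, 13.4 and 13.3 CPM in sham, 25.7, 24.7, 22.7 and 19.8 at day 1 AMI and 32.9, 30.3, 33.7 and 31.2 at day 7 AMI (log2 FC 0.93 ± 0.14, adjusted p = 5.29e-05). It was the only one of the 45 genes that was higher in each of the 3 comparisons. Xirp2 stood at 726, 1171, 933 and 837 CPM at day 7 AMI (log2 FC 0.91 ± 0.24, adjusted p = 0.00515) and Synpo2l at 340, 273, 295 and 272 (log2 FC 0.78 ± 0.19, adjusted p = 0.00227), in both cases with no overlap with sham. Of the 11 genes that rose at day 1 AMI, Flnc, Des, Pdlim5 and Vcl did not pass the test at day 7 AMI, and Cryab, Csrp3 and Nrap were then below sham (log2 FC -0.60, -0.44 and -0.30). Those 3 falls did not pass with library sizes alone or on TPM, where Csrp3 and Nrap measured 0.09 and 0.25, and the calls of Csrp3 (adjusted p = 0.0462) and Nrap (0.0497) were each lost in 8 of the 12 fits that left out 1 library.

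From day 1 to day 7 AMI, 27 genes fell, 3 rose and 15 did not pass the test, where 24.2% of all genes were higher and 22.8% lower. No gene was a DEG higher (8.55% of all genes were) and 6 were DEGs lower (2.69%). The median log2 FC was -0.44. On TPM 10 genes were lower and 4 higher (4.36% and 20.4% of all genes), and with library sizes alone 22 and 3 (14.2% and 31.2%). The largest step was in Flnc, which returned to 561, 415, 454 and 435 CPM (log2 FC -1.83 ± 0.22, adjusted p = 1.88e-05), and 3 of these 4 hearts lay inside the sham range. Cryab followed with 1019, 1043, 1131 and 919 CPM at day 7 AMI (log2 FC -1.29 ± 0.14, adjusted p = 9.59e-06), then Csrp3 (-1.12), Tnnt1 (-1.09), Des (-1.04) and Trim54 (-1.04).

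Mybpc3 and Myom3 ran the other way. Mybpc3 measured 3469, 3587, 4975 and 5583 CPM in sham, 2599, 2043, 2732 and 2697 at day 1 AMI and 3446, 3626, 4181 and 3441 at day 7 AMI. Its step from day 1 to day 7 was a log2 FC of 0.55 ± 0.15 (adjusted p = 0.00988) with no overlap, and at day 7 AMI it did not pass the test against sham (log2 FC -0.26 ± 0.15, adjusted p = 0.157). Myom3 was low throughout, at 4.02 to 5.43 CPM in sham, 2.24 to 2.57 at day 1 AMI and 2.34 to 4.50 at day 7 AMI (step log2 FC 0.53, adjusted p = 0.0369), and this call was lost in 7 of the 12 fits that left out 1 library. The steps of Mybpc3 and Pdlim3 upward were called in every alternative fit.

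**Figure D3:**
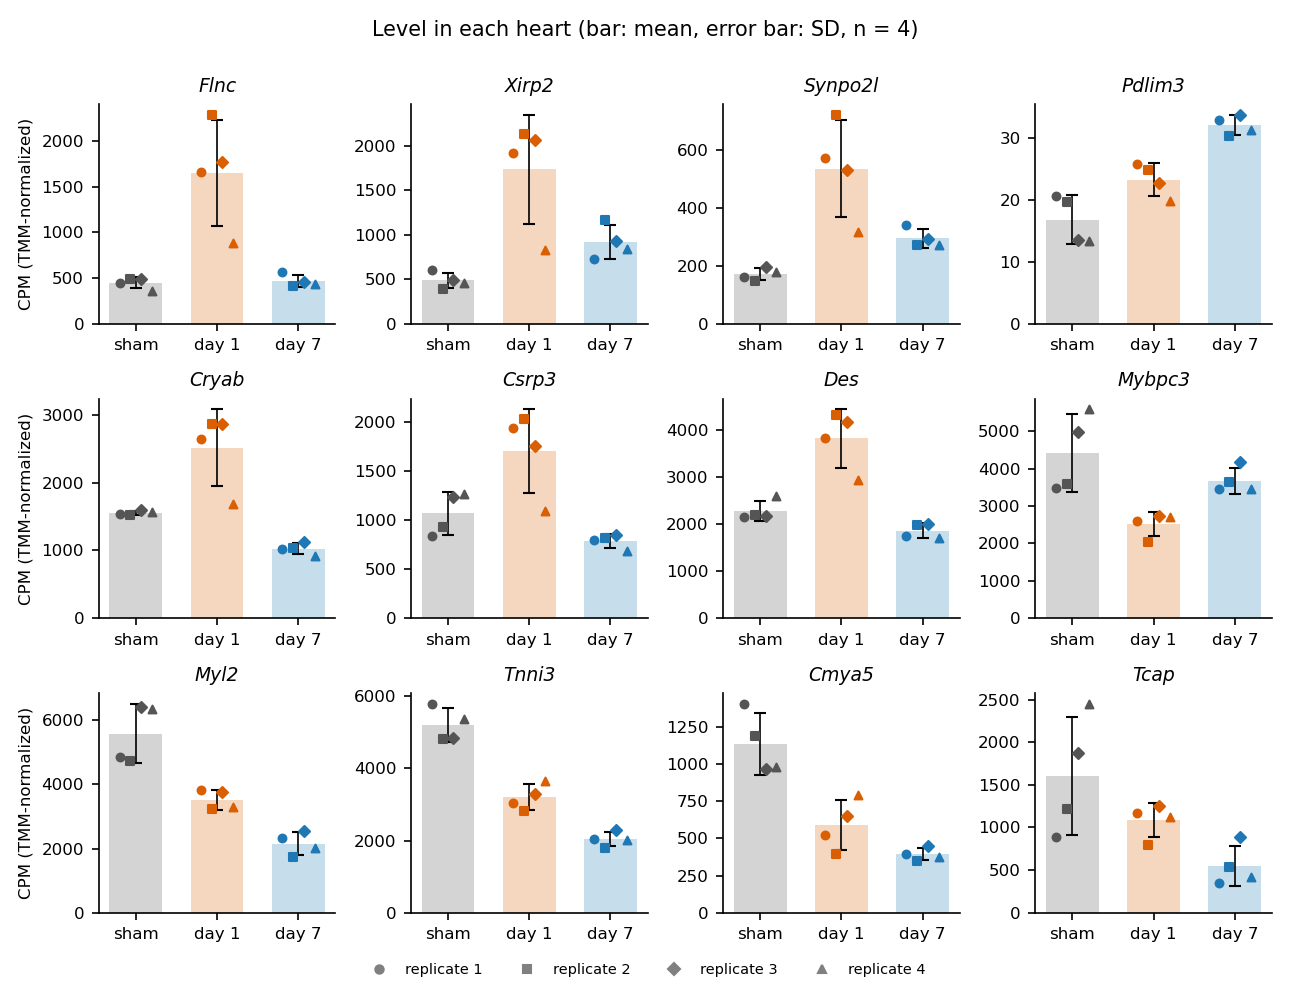
CPM in each heart for 12 of the genes, with bars for the mean and error bars for the SD of 4 hearts and a marker shape for each replicate number. Flnc, Xirp2, Synpo2l, Cryab, Csrp3 and Des peak at day 1 AMI with the fourth heart lowest, Pdlim3 climbs over both times, Mybpc3 dips at day 1 AMI, and Myl2, Tnni3, Cmya5 and Tcap descend.

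To set each gene against the common fall of cardiomyocyte transcripts, 23 cardiomyocyte genes outside the 45 were used as a reference: 12 of calcium handling and the membrane (such as Ryr2, Atp2a2 and Pln) and 11 of metabolism (such as Ckm, Mb and Cox7a1). Their mean log2 CPM fell by 0.46 ± 0.11 at day 1 AMI and by 0.99 ± 0.11 at day 7 AMI relative to sham (SD, n = 4). The mean of the 45 genes stood at -0.06 ± 0.06 and -0.47 ± 0.11. The reference lists themselves differed, with means of -0.28 and -0.73 for the calcium and membrane genes and -0.66 and -1.27 for the metabolic genes. The median log2 FCs of the 45 genes were -0.32 and -0.57. Those of the calcium and membrane genes were -0.30 and -0.67, and those of the metabolic genes -0.65 and -1.20. By the median the 45 genes were thus not above the calcium and membrane genes at day 1 AMI.

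**Figure D4:**
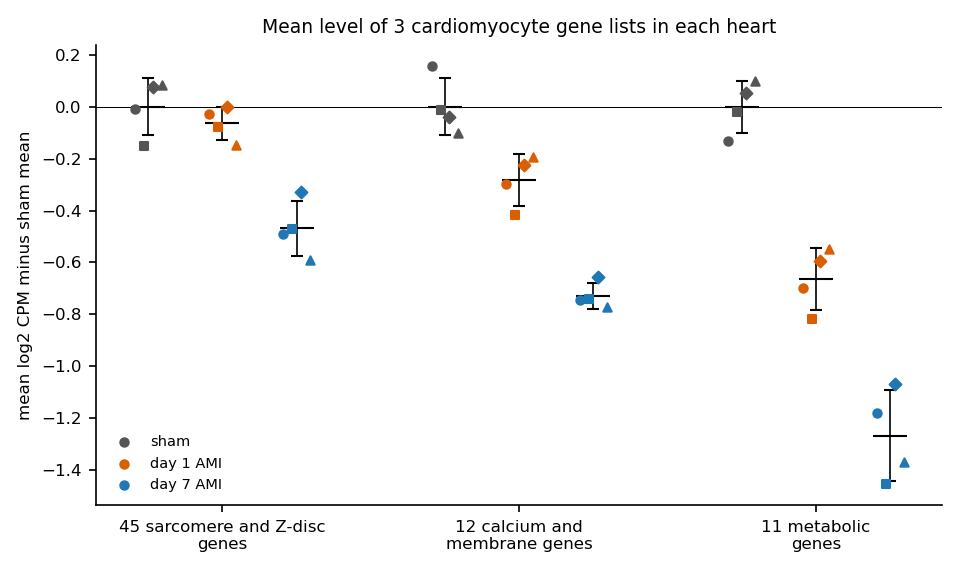
Mean log2 CPM of the 45 genes, 12 calcium and membrane genes and 11 metabolic genes in each heart, relative to the mean of the sham hearts; lines and bars give the mean and SD of 4 hearts. By this mean the 45 genes lie highest of the 3 lists at both times, at -0.06 and -0.47, and the metabolic genes lowest, at -0.66 and -1.27. By the median log2 FC at day 1 AMI, the 45 genes (-0.32) do not lie above the calcium and membrane genes (-0.30).

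The edgeR fit was repeated with the libraries scaled so that the reference genes were level. In this fit 15 of the 45 genes were higher at day 1 AMI, 5 were lower and 25 did not pass the test, and at day 7 AMI 30 were higher, 4 lower and 11 did not pass. From day 1 to day 7, 18 were higher and 6 lower. These shares stand against a background that the scaling itself moves: 57.9% of all genes were higher and 3.87% lower at day 1 AMI, 83.6% and 2.08% at day 7 AMI, and 63.2% and 3.21% in the step, with all-gene medians of 0.46, 1.01 and 0.54. The calls in this fit are therefore read only against the reference genes, not against all genes. Some of the 23 reference genes were themselves called, 5 higher and 6 lower at day 1 AMI and 7 and 8 at day 7 AMI. Of the 12 calcium and membrane genes, 7 were higher and 2 lower at day 7 AMI, and of the 11 metabolic genes 0 and 6. A call above the reference was thus not particular to the 45 genes. The choice of reference mattered. At day 7 AMI the calcium and membrane list alone gave 17 higher and 8 lower, where 72.8% of all genes were higher and 4.49% lower, while the metabolic list alone gave 37 higher and 0 lower, where 90.2% were higher and 0.804% lower.

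15 genes were above the reference at both times: Actn2, Csrp3, Myoz1, Pdlim3, Pdlim5, Flnc, Synpo2l, Trim55, Cryab, Smyd1, Nrap, Xirp2, Des, Dmd and Vcl. The largest at day 7 AMI, after Myoz1, were Pdlim3 (relative log2 FC 1.92 ± 0.16), Xirp2 (1.91 ± 0.27), Synpo2l (1.77 ± 0.21), Vcl (1.25 ± 0.14), Flnc (1.04 ± 0.23) and Pdlim5 (1.02 ± 0.16), each with an adjusted p of 0.000709 or less. Alpha-actinin 2 (Actn2), dystrophin (Dmd), the titin-associated ligase Trim55 and the myosin methyltransferase Smyd1 were in this group without having risen under TMM. At day 1 AMI, 13 of the 15, all but Actn2 and Smyd1, were called higher under each of the 16 alternatives of this fit. At day 7 AMI the genes called higher under all 16 were Mybpc3, Tnni1, Myoz1, Pdlim3, Pdlim5, Flnc, Synpo2l, Xirp2 and Vcl.

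A few genes fell further than the reference. Tnni3 (relative log2 FC -0.24 ± 0.08 and -0.37 ± 0.08) and Cmya5 (-0.50 ± 0.15 and -0.55 ± 0.15) were below it at both times, Myl2 and Trim54 at day 7 AMI (-0.40 each), and Myom2, Lmod3 and Mybpc3 at day 1 AMI (-0.73, -0.39 and -0.35). Mybpc3 was the 1 gene that crossed, to a relative log2 FC of 0.72 ± 0.14 at day 7 AMI. Its call below the reference at day 1 AMI was lost in 6 of the 12 fits that left out 1 library. 9 genes passed at neither time, among them Myl3, Tnnt2, Tcap, Myoz2, Trim63 and Unc45b, the myosin chaperone. Of the genes below the reference, only Myom2 at day 1 AMI was called under all 16 alternatives, and none at day 7 AMI.

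The skeletal isoforms stayed minor. Tnni1, the slow skeletal troponin I of the fetal heart, made up 0.0057% of the summed TPM of Tnni1 and Tnni3 in sham and 0.019% at day 7 AMI, from 2 to 25 counts per library, and it did not pass the TMM test in any comparison. Tnnt1 made up 0.198% ± 0.055 of Tnnt1 and Tnnt2 in sham, 0.240% ± 0.0086 at day 1 AMI and 0.175% ± 0.025 at day 7 AMI. Lmod3 made up 16.4% ± 2.8 of the 2 leiomodins in sham, 13.2% ± 1.3 at day 1 AMI and 15.1% ± 2.2 at day 7 AMI. The sham range held or overlapped the other groups in Tnnt1 and Lmod3, while the day 1 AMI hearts (0.232% to 0.249%) lay above the day 7 AMI hearts (0.138% to 0.194%) in Tnnt1.

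Other tissue was measured beside these genes. The skeletal muscle myosins Myh1, Myh2 and Myh4 were at 13 counts or fewer in every library but the second day 7 AMI heart, which held 38, 26 and 6 counts. 8 of 14 skeletal muscle markers passed the filter, and the summed CPM of the 14 was 27.6 to 51.2 in sham, 43.9 to 72.2 at day 1 AMI and 68.0 to 82.3 at day 7 AMI. Mybpc2 and Casq1 carried most of that sum, at means of 317 and 353 counts in sham and 1153 and 748 at day 7 AMI. Of the 8 tested, 3 were called higher and 2 lower at day 7 AMI. The 6 smooth muscle markers summed to 282 to 437 CPM in sham, 302 to 471 at day 1 AMI and 452 to 1081 at day 7 AMI. Of these 6, 1 was called higher and 1 lower at day 1 AMI, and 3 higher and 0 lower at day 7 AMI. Pdlim3, a gene smooth muscle also uses, was called higher at both times. In the 4 day 7 AMI hearts the smooth muscle sums were 1081, 527, 452 and 493 CPM, and Pdlim3 measured 32.9, 30.3, 33.7 and 31.2. Whether smooth muscle had a part in the rise of Pdlim3 was not tested. Fibroblast markers summed to 1161 to 1406 CPM in sham, 1958 to 2645 at day 1 AMI and 9147 to 19723 at day 7 AMI. Leukocyte markers summed to 88.3 to 154, 329 to 477 and 339 to 544 CPM. The sums of the fibroblast and leukocyte lists were above the sham range at both times. Atrial markers summed to 923 CPM in the fourth sham heart and to 122 to 253 in the other sham hearts, and erythroid markers to 4450 in the second sham heart against 491 to 1178. The part of these cells in the changes of the 45 genes was not tested.

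8 of the 45 genes share more than 5% of their exon bases with another annotated gene (GENCODE M21, GRCm38), and whether counting used strand is not given in the sources used here. The overlap was 32.6% for Tmod1 (with Tstd2), 26.6% for Trim54 (Gm15469), 25.5% for Vcl (Ap3m1), 20.7% for Cmya5 (A630019I02Rik) and 17.0% for Cryab (Hspb2), each on the opposite strand, so reads of the pair cannot be told apart without strand. Nexn shared 7.50% with Gm43185 on its own strand, and Des and Unc45b shared 5.86% and 5.68%.

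Outside the 45 genes, a further list held 40 sarcomere and Z-disc genes, of which 36 were tested. At day 1 AMI 16 of the 36 rose and 8 fell, where 22.0% of all genes were higher and 19.9% lower. At day 7 AMI 10 rose and 16 fell, where 30.9% of all genes were higher and 28.4% lower. From day 1 to day 7 2 rose and 14 fell, where 24.2% of all genes were higher and 22.8% lower. Ankrd2, a titin-binding ankyrin repeat protein, followed the course of Flnc on a larger scale. It measured 0.104, 0.0821, 0.194 and 0.287 CPM in sham, 24.7, 23.2, 20.4 and 7.00 at day 1 AMI and 0.136 to 0.59 at day 7 AMI (day 1 log2 FC 6.79 ± 0.52, adjusted p = 2.74e-06), again with the fourth day 1 AMI heart lowest. Fhl1 rose by 2.78 and Ankrd1 by 2.21 at day 1 AMI, and Mylk4, a myosin light chain kinase, fell by 1.70 on the log2 scale. The slow myosin heavy chain Myh7 rose from 92.8 to 211 CPM in sham to 640 to 1645 at day 7 AMI (log2 FC 2.78 ± 0.37, adjusted p = 1.72e-05), and Myh6, the adult heavy chain, fell from 32762 to 37374 CPM to 13390 to 17779.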

How the data were processed

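Total RNA of whole mouse hearts was sequenced as 150-base paired reads. Per the study's methods and the labels, the authors trimmed reads with Cutadapt, aligned them with STAR 2.4.0j to GRCm38 (mm10, Ensembl annotation) and obtained TPM with RSEM. The deposited counts are whole numbers per gene, with the counting tool and strand setting not given in the sources used here, and the deposited TPM are relative to transcript length and to each library's total. Base calling with CASAVA 1.8 is named in the submitters' processing notes.

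The main test was edgeR 4.0.16's quasi-likelihood test on the counts (TMM, filterByExpr by group, 1 fit of 3 groups and 12 libraries, Benjamini-Hochberg over 15306 genes, R 4.3.3). A gene changed at an adjusted p under 0.05 and was a DEG at a FC of 2 or more as well. The reference-scaled fit set the mean log2 CPM (prior count 2) of 23 cardiomyocyte genes equal in all libraries. A standard error is the log2 FC divided by the square root of F. DESeq2 1.42.0, limma 3.58.1 on log2(TPM + 1) or log2(TPM + 0.1), other scalings and left-out libraries were alternatives. The fits were tested on simulated data.

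The 45 genes and all lists were chosen with earlier results of these data known. All 45 could be named. Of other lists, the 4 largest changes per comparison and defining markers could be. A planned comparison of proteins was not run. P-values measure the spread between libraries, of which the labels do not say that each is a separate animal. Same-numbered libraries were not taken as pairs: correlations of their deviations ran from -0.244 to 0.229, against -0.271 to 0.250 for different numbers.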

Additional observations from a re-analysis of the deposited data

Results flagged for a closer look

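The spread of each gene within each group was examined in 135 groups of 4 hearts, for a highest or lowest heart whose gap to the next, as a share of the range of log2 CPM, was past Dixon's critical value. 10 groups had such a heart, where chance gives about 1 in 20. Day 1 AMI replicate 4 was low for Xirp2 (9.6981 log2 CPM, against 10.91 to 11.063 in the other hearts of its group) and Cryab (10.714 against 11.368 to 11.489), and high for Tnnt2 (12.367 against 12.25 to 12.261). Day 1 AMI replicate 2 was low for Myom1 (10.285 against 10.431 to 10.44), Lmod2 (8.1935 against 8.5664 to 8.6315) and Fhl2 (10.276 against 10.656 to 10.711). In sham, replicate 1 was high for Nexn (9.3828 against 8.8024 to 8.8396) and Ablim1 (9.3685 against 9.2231 to 9.2386), replicate 2 was low for Lmod3 (6.4026 against 6.9421 to 6.9748), and replicate 4 was high for Des (11.345 against 11.077 to 11.095). No day 7 AMI heart was set apart in this way.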

How the results depend on the processing

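Counts of genes changed were within 1.5 times the reported ones with DESeq2, with RLE size factors and without the filter. With library sizes alone, 10 genes were lower at day 1 AMI (0 as DEGs), 15 lower at day 7 AMI (2 as DEGs), 4 DEGs higher at day 7 AMI and 2 DEGs lower in the step from day 1 to day 7. Of all 15306 genes, 1061 and 1659 were lower at the 2 times (217 and 318 as DEGs). In that fit 3633 were DEGs higher at day 7 AMI and 293 DEGs lower in the step. On log2(TPM + 1), log2(TPM + 0.1) and log2(TPM + 1) with a filter on low TPM, 4, 4 and 7 genes were lower at day 1 AMI (0 as DEGs in each) and 9, 9 and 11 at day 7 AMI (0 as DEGs in each). On the same scales 8, 9 and 10 were higher at day 7 AMI (3, 5 and 3 as DEGs), 10, 11 and 16 were lower in the step (2 as DEGs in each), and 6 were higher in the step with the filter. Of all genes (26574, 26574 and 13716), 607, 627 and 707 were lower at day 1 AMI and 932, 936 and 993 at day 7 AMI. At day 7 AMI 9876, 9960 and 8606 were higher, and in the step 1159, 1120 and 1273 were lower. With the filter 4879 were higher in the step. In the reference-scaled fit, the metabolic list gave 25 higher and 1 lower at day 1 AMI and 0 lower at day 7 AMI, and the calcium and membrane list 10 lower at day 1 AMI and 17 higher and 8 lower at day 7 AMI. Of all 15306 genes, the metabolic list gave 10785 higher and 265 lower at day 1 AMI and 123 lower at day 7 AMI. The calcium and membrane list gave 1062 lower at day 1 AMI and 11136 higher and 687 lower at day 7 AMI. With the median of the 45 genes as reference, 12 were lower at day 1 AMI, 9 higher and 12 lower at day 7 AMI, and 7 higher and 13 lower in the step. Of all 15306 genes, 1300 were then lower at day 1 AMI, and 9561 higher and 1091 lower at day 7 AMI. In the step 7071 were higher and 851 lower.

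Leaving out each library in turn gave 10 to 11 higher and 15 to 22 lower at day 1 AMI (4 to 4 and 1 to 2 as DEGs), 4 to 5 higher and 28 to 34 lower at day 7 AMI (1 to 3 and 7 to 10 as DEGs), and 2 to 3 higher and 22 to 28 lower in the step (0 to 0 and 4 to 8 as DEGs). The second DEG lower at day 1 AMI came without sham replicate 3 or day 1 AMI replicate 4. In the reference-scaled fit the ranges were 15 to 17 higher and 3 to 6 lower at day 1 AMI, 27 to 32 and 4 to 6 at day 7 AMI, and 14 to 18 and 5 to 9 in the step, with 3 lower at day 1 AMI without sham replicate 1, 3 or 4 or day 1 AMI replicate 1 or 2. Of the genes called, 8 of 33 at day 1 AMI, 6 of 37 at day 7 AMI and 7 of 30 in the step lost the call in at least 1 of these fits. With a replicate block, 11 genes were higher and 21 lower at day 1 AMI, 4 and 32 at day 7 AMI and 3 and 25 in the step. Of all 15306 genes, the block gave 3137 higher and 2746 lower at day 1 AMI. At day 7 AMI it gave 4589 and 4158, and in the step 3511 and 3271.

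Signs changed with the scaling where at least 1 of both values passed the test. With library sizes alone the log2 FC of Actn2 at day 1 AMI was 0.23, and at day 7 AMI those of Obsl1, Tnnc1, Trim55 and Nrap were 0.028, 0.0024, 0.083 and 0.095. On log2(TPM + 1), with and without the filter, those of Myom1, Actn2 and Fhl2 at day 1 AMI were 0.0017, 0.28 and 0.017, and those of Tmod1 and Dmd in the step were 0.0004 and 0.056. At day 7 AMI they were 0.061 for Myom1, 0.13 for Obsl1, 0.15 for Tnnc1, 0.039 for Lmod2, 0.27 for Nebl, 0.14 for Actn2, 0.092 for Csrp3, 0.18 for Nexn, 0.29 for Trim55, 0.25 for Nrap, 0.51 for Dmd and, with the filter, 0.28 for Des. On log2(TPM + 0.1) the same genes measured the same to within rounding, but for Lmod2 (0.040), Trim55 (0.30), Dmd (0.53, and 0.058 in the step). Relative to the metabolic list, Myl3 measured 0.22 at day 7 AMI, and relative to the calcium and membrane list Ablim1 measured -0.062. Relative to the median of the 45 genes, Tnnt2 measured -0.24 at day 1 AMI, and at day 7 AMI the values were -0.041 for Ttn, -0.072 for Tpm1, -0.040 for Tmod1, -0.11 for Ldb3, -0.28 for Myoz2, -0.014 for Fhl2, -0.38 for Trim63, -0.048 for Cryab, -0.12 for Smyd1, -0.42 for Unc45b and -0.24 for Ablim1.

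Another 178 changes of sign occurred where neither value passed the test. Apart from the scaling itself, the cause of these differences was not tested. Depth limits Myoz1 and Tnni1, at 40 counts or fewer per library.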
